A study of Mus musculus with 6 samples.

Results

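The nucleolar ribosome biogenesis genes examined here are 36 genes whose products make, modify and assemble ribosomal RNA, taken by name from a list and matched by symbol to the Ensembl identifiers of the deposited tables through the mouse annotation GENCODE M21. All 36 were found among the 55536 identifiers, and all 36 were among the 11120 genes expressed well enough to test. The cells were RAW264.7, an established mouse macrophage line that can be driven towards osteoclasts, the cells that resorb bone, by the cytokine RANKL. RANKL was present at 50 ng/mL for all 6 libraries: 3 had nothing else and 3 also had 4 µM etelcalcetide, a peptide that acts on the calcium-sensing receptor. The series design gives 5 days of exposure, whereas in either group replicate 1 is labelled day 5, replicate 2 day 6 and replicate 3 day 7. No untreated cells were analysed here, so the values say how RANKL-treated cells differed when the peptide was present.

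Ribosome production starts in the nucleolus, where RNA polymerase I copies the ribosomal DNA into a long precursor. Small nucleolar ribonucleoproteins (snoRNPs), each a guide RNA with a set of core proteins, then modify chosen bases of the precursor. Box C/D particles add methyl groups to riboses, and H/ACA particles turn uridine into pseudouridine. Separate sets of assembly factors cut the precursor and fold it with ribosomal proteins into the small and the large subunit. The genes are known to respond to growth signals, in part through transcription factors of the MYC family that bind the E-box motif.

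Most of the 36 genes were lower with etelcalcetide, and none passed the test in the other direction. With limma and Benjamini-Hochberg adjustment over all tested genes at a threshold of 0.05, 29 of 36 were called lower, 0 higher and 7 neither. Among all 11120 tested genes 53.0% were called, 27.0% lower and 26.0% higher. The 36 genes were chosen with earlier results of these data known, so this contrast is a description and no independent test. The median log2 fold change was -0.33 for the 36 genes and -0.01 for all tested genes. The changes were small, and 5 of the 36 were called lower with a fall of at least 1.5-fold, against 8.08% of all tested genes. As a share of the genes called lower, these were 5 of 29 and 899 of 2998. The 6456 genes whose RANKL mean lay within the range of the 36 (5.51 to 555 FPKM) are a closer background, and 34.3% of them were called lower and 24.9% higher, with a median of -0.05. The scaled values of the 2 groups did not overlap, on the lower side, for 29 of the 36 genes, against 31.2% of all tested genes. FPKM is the read count divided by exon length and by library size, and log2 fold changes are on the scale log2(FPKM + 0.1) after scaling between libraries. Percent changes and their intervals are computed from these log2 fold changes. They therefore differ from the ratio of the FPKM values printed below, which are as deposited. In bulk RNA, fewer cells of a type and less RNA per cell cannot be told apart.

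**Figure D1:**
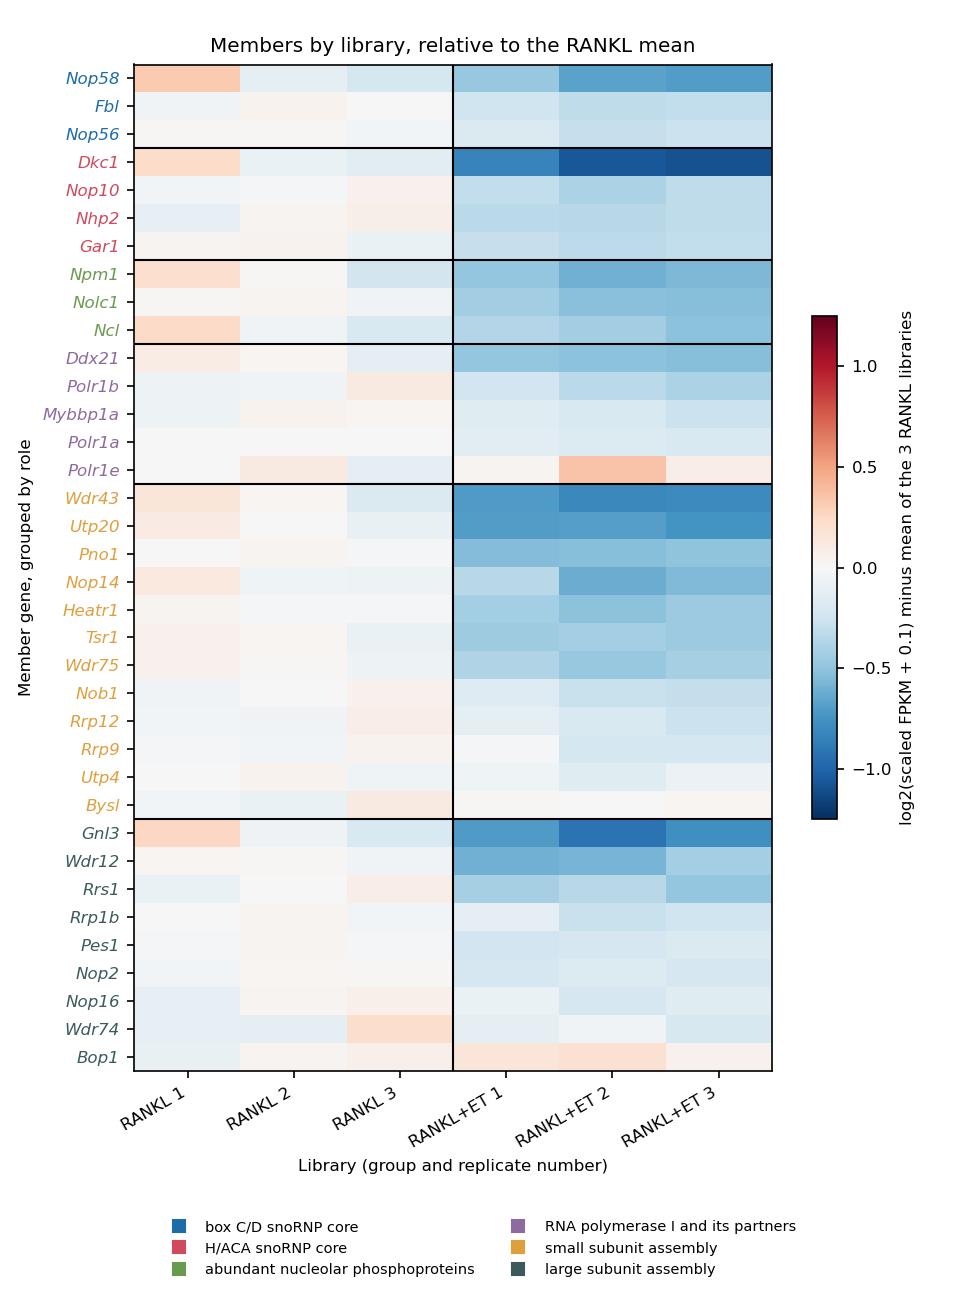
Scaled log2(FPKM + 0.1) of the 36 genes (rows, grouped by role) in the 6 libraries (columns; ET, etelcalcetide), minus the mean of the 3 RANKL libraries; blue is lower and red higher. The 3 etelcalcetide columns are blue in most rows, with medians of -0.30, -0.34 and -0.32, while Polr1e, Bop1 and Bysl are not.

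Each treated library showed the shift by itself. Relative to the RANKL mean, the median over the 36 genes was -0.30, -0.34 and -0.32 in etelcalcetide replicates 1, 2 and 3, and 0.01, 0.01 and -0.03 in RANKL replicates 1, 2 and 3. Deviations in the RANKL libraries sum to 0 for each gene by construction, so their medians near 0 are no independent check. The genes together took 0.873%, 0.812% and 0.771% of reads in RANKL replicates 1, 2 and 3 and 0.676%, 0.634% and 0.645% in etelcalcetide replicates 1, 2 and 3, so the groups did not overlap. All 29 called genes were lower in each of the 3 same-numbered comparisons, which follows from their scaled values not overlapping between groups. Scaling divided RANKL values by 0.967 to 0.978 and treated values by 1.01 to 1.04, which lowered the fold changes. With library totals alone the median log2 fold change of the 36 was -0.25 rather than -0.33, and the calls lost were of small falls. In that setting 23 of 36 genes were lower and 1 higher, where 20.4% of all tested genes were lower and 32.0% higher. The libraries held 13742913 to 16264432 reads, so a single read counts for 0.0615 to 0.0728 FPKM where the exons add up to 1 kb. The spread behind every p-value is between libraries that by their labels also differ in days of exposure, and no label says whether they came from separate cultures.

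Markers of cell state moved with the groups. Osteoclast markers summed to 393 to 539 FPKM with RANKL alone and 206 to 219 FPKM with etelcalcetide, with 6 of 9 tested markers lower, while macrophage markers summed to 2841 to 3008 and 3315 to 3490 FPKM, with 5 of 9 higher. No marker of lymphocytes, neutrophils and mast cells, fibroblasts and osteoblasts, epithelium and endothelium or erythroid cells was high enough to test, and 4 of 7, 4 of 7, 2 of 7, 3 of 7 and 5 of 6 of these markers, in that order, had no read in any library. The epithelial and endothelial list summed to 0.496 to 0.766 FPKM with RANKL and 0.0290 to 0.112 with etelcalcetide, mostly from Pecam1. Genes annotated as ribosomal RNA took 1.1% to 1.61% of reads in RANKL libraries and 0.323% to 2.53% in treated ones, so the groups overlapped. The sources used here do not give how ribosomal RNA was removed, so this share is no measure of ribosomal RNA in the cells. The part of these differences in the results below was not tested.

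The listed core proteins of both kinds of snoRNP were lower without exception, 3 of 3 for box C/D and 4 of 4 for H/ACA. A further box C/D core gene, Snu13, was counted with the other snoRNP genes below and was also called lower. Snu13 went from 65.3 ± 3.92 to 55.2 ± 0.537 FPKM (SD, n = 3 per group, limma log2 fold change -0.32, adjusted p = 0.00121). Fbl encodes fibrillarin, the methyltransferase of box C/D particles (ENSMUSG00000046865, GRCm38 chromosome 7, 28169710 to 28179269). It stood at 58.9, 62.6 and 61.3 FPKM in RANKL replicates 1 to 3 and at 54.3, 50.8 and 52.4 FPKM in etelcalcetide replicates 1 to 3. The groups did not overlap, and after scaling Fbl fell by 18.5% (limma log2 fold change -0.29, SE 0.0495, adjusted p = 0.00113). Nop56, one of the paired scaffold proteins, went from 79.3, 78.7 and 77.3 to 73.2, 67.0 and 69.7 FPKM (log2 fold change -0.24, limma adjusted p = 0.00285). Nop58, its paralogue in the same particle, went from 16.1, 11.8 and 11.1 to 9.76, 8.35 and 8.38 FPKM (limma log2 fold change -0.61 with SE 0.135, adjusted p = 0.00470). RANKL replicate 1 was the highest Nop58 library, and without it the log2 fold change was -0.45.

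Dkc1 changed more than any other of the 36 genes. It encodes dyskerin, the pseudouridine synthase of H/ACA particles, which also binds telomerase RNA (ENSMUSG00000031403, chromosome X, 75095854 to 75109777). Its level was 39.1, 31.3 and 30.4 FPKM in RANKL replicates 1 to 3 and 19.8, 16.7 and 16.8 FPKM in etelcalcetide replicates 1 to 3, so every treated library was below every RANKL library by a wide margin. After scaling it fell by 49.7% (95% interval of the change -57.3% to -40.8%, limma adjusted p = 8.39e-05). RANKL replicate 1 was the highest Dkc1 library, and the log2 fold change went from -0.99 to -0.88 without it. The 3 proteins that bind with dyskerin changed less. Nhp2 went from 160, 175 and 181 to 144, 140 and 147 FPKM, and after scaling it fell by 20.7% (limma adjusted p = 0.00115). Nop10 fell from a mean of 63.3 ± 2.19 to 52.9 ± 2.37 FPKM and Gar1 from 37.7 ± 1.6 to 32.2 ± 0.821 FPKM (SD, n = 3 per group). After scaling Nop10 and Gar1 fell by 20.9% and 19.3%.

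Some of the genes also carry snoRNA genes inside their own bodies. Of the 36 genes, 7 (19.4%) held at least 1 annotated snoRNA on the same strand (Nop58, Ncl, Nop56, Tsr1, Gnl3, Wdr43 and Dkc1), 21 snoRNAs in all, against 2.02% of the 10121 tested protein-coding genes. All 7 hosts were called lower, as were 29 of all 36 genes, and a difference between hosts and the rest was not tested. The snoRNAs themselves were barely counted: 11 of 21 had no read in any library, and the most read one, Snord110 in Nop56, had 10 reads over all 6 libraries, too few to test. They are 68 to 133 bases long, and the sources used here do not say whether such short RNAs were kept. Snord110 (GRCm38 chr2:130275506-130275573, plus strand) and Snord82 of Ncl (chr1:86356261-86356330, minus strand) show what the box C/D proteins hold. Both are given as in GENCODE M21, with T for U, and capitals mark the C box and the D box near the ends.
Snord110: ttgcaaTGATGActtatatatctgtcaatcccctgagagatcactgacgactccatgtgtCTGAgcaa
Snord82: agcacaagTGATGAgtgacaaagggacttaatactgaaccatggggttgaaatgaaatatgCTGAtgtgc

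The abundant nucleolar phosphoproteins were all lower, 3 of 3. Npm1 encodes nucleophosmin, a chaperone of ribosomal proteins and histones, and was the most abundant of the 36 (ENSMUSG00000057113, chromosome 11, 33152287 to 33163206). It measured 639, 552 and 474 FPKM in RANKL replicates 1, 2 and 3 and 417, 379 and 398 FPKM in etelcalcetide replicates 1, 2 and 3. RANKL libraries were spread widely, yet the lowest of them lay above the highest treated one. Npm1 fell by 31.7% (limma log2 fold change -0.55 with SE 0.0997, adjusted p = 0.00172), and the log2 fold change without RANKL replicate 1 was -0.44. Ncl encodes nucleolin, which binds nascent ribosomal RNA, and went from 147, 120 and 109 to 102, 96.1 and 93.3 FPKM. Its log2 fold change was -0.43 (limma adjusted p = 0.00562), and -0.32 without RANKL replicate 1. Nolc1, a phosphoprotein that gathers snoRNPs in the nucleolus, was tighter: 101, 101 and 97.1 FPKM against 78.3, 72.3 and 73.7 FPKM (limma log2 fold change -0.50 with SE 0.0503, adjusted p = 6.61e-05).

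**Figure D2:**
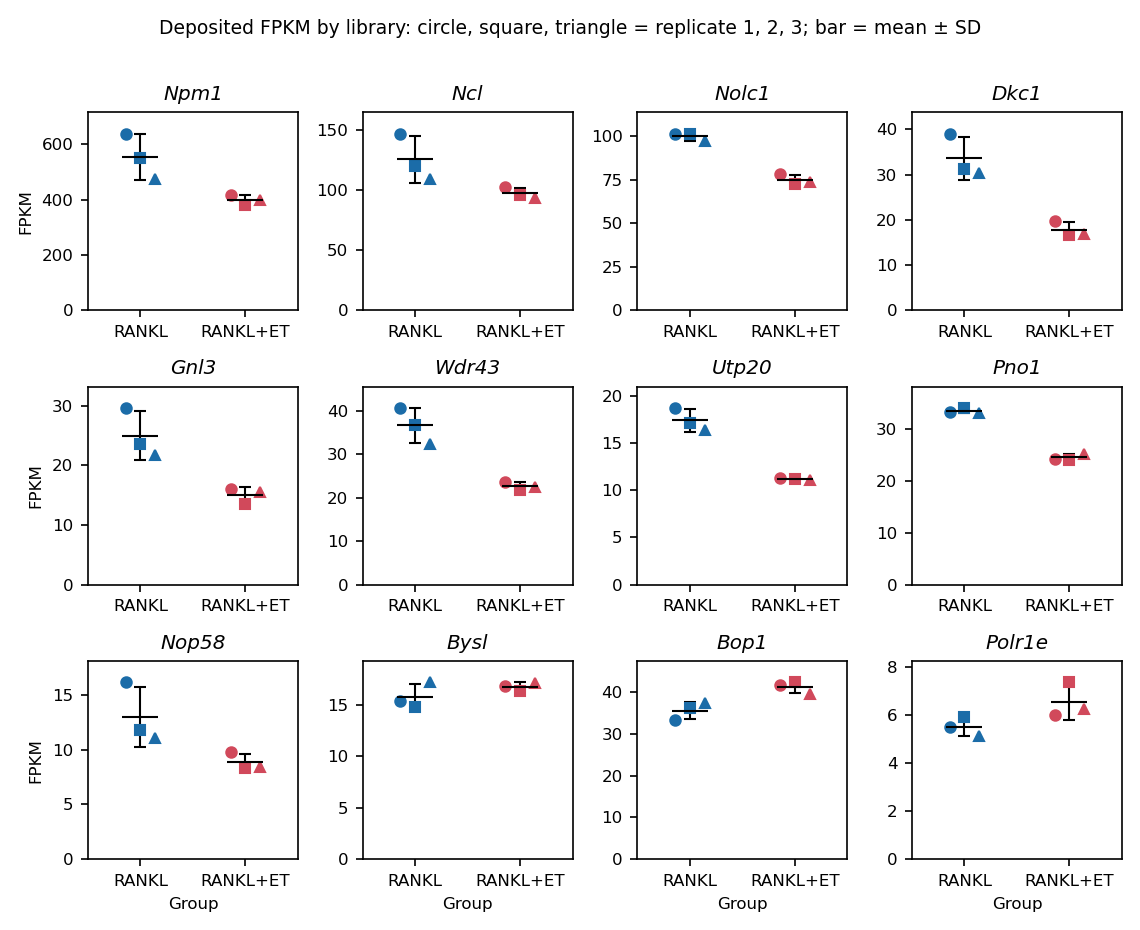
Deposited FPKM (linear axis from 0) of 12 of the genes in each library, with group means and SD (n = 3 per group; ET, etelcalcetide). The treated points lie below the RANKL points for Npm1 to Nop58, while those of Bysl overlap and those of Bop1 and Polr1e lie above.

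Among the 5 genes of RNA polymerase I and its partners 4 were lower and 1 was not called. Polr1a, the largest catalytic subunit, was nearly level: 15.6, 15.4 and 15.5 FPKM with RANKL and 15.0, 14.3 and 14.5 FPKM with etelcalcetide. It passed narrowly (log2 fold change -0.17, limma adjusted p = 0.0283) and did not pass with library totals alone, with the replicate block (adjusted p = 0.0613), or without RANKL replicate 2, etelcalcetide replicate 1, 2 or 3 (adjusted p 0.0509 to 0.104). Polr1b, the other large subunit of the catalytic core, went from 11.2, 11.3 and 12.7 to 10.5, 9.61 and 9.49 FPKM (log2 fold change -0.33, limma adjusted p = 0.00559). Polr1e, a peripheral subunit and the lowest of the 36 genes, did not pass. It stood at 5.48, 5.92 and 5.12 FPKM with RANKL and at 5.99, 7.36 and 6.25 FPKM with etelcalcetide (log2 fold change 0.16, 95% interval of the change -5.11% to 31.7%, limma adjusted p = 0.224). The deposited values of the 2 groups did not overlap, but after scaling they did.

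Ddx21 and Mybbp1a work beside the polymerase. Ddx21, an RNA helicase of ribosomal RNA transcription and processing, fell from 123, 116 and 106 to 86.9, 83.7 and 84.9 FPKM (limma log2 fold change -0.51 with SE 0.0607, adjusted p = 0.000167). Mybbp1a, a nucleolar protein that represses the polymerase, went from 94.5, 101 and 101 to 94.2, 90.4 and 87.8 FPKM, so that etelcalcetide replicate 1 almost touched RANKL replicate 1. Its log2 fold change was -0.20 (limma adjusted p = 0.0111), which did not hold without etelcalcetide replicate 3 (adjusted p = 0.0575) or with library totals alone (adjusted p = 0.0787).

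Of the 12 small subunit assembly genes 9 were lower, and 3 did not pass. The largest changes were in parts of the early processome that forms on the nascent precursor. Wdr43 (ENSMUSG00000041057, chromosome 17, 71615895 to 71659031) went from 40.7, 36.9 and 32.5 to 23.7, 21.7 and 22.5 FPKM. After scaling it fell by 41.3% (SE of the log2 fold change 0.0824, limma adjusted p = 9.27e-05). Utp20, a very large scaffold protein (ENSMUSG00000004356, chromosome 10, 88746607 to 88826804), went from 18.7, 17.2 and 16.3 to 11.3, 11.2 and 11.1 FPKM. After scaling it fell by 38.8% (limma adjusted p = 4.45e-05). Both had treated values in a narrow band far below the lowest RANKL library. RANKL replicate 1 was the highest library for both. Without it the log2 fold change went from -0.77 to -0.69 for Wdr43 and from -0.71 to -0.66 for Utp20. Heatr1 and Wdr75, other early factors that link transcription to processing, fell by 27.6% and 25.3%. Nop14 went from 25.8 ± 1.92 to 19.2 ± 2.06 FPKM (SD, n = 3 per group), and after scaling it fell by 29.5%.

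The late factors of the small subunit diverged. Pno1, which stays on the particle until its last steps (ENSMUSG00000020116, chromosome 11, 17203198 to 17211568), went from 33.3, 34.0 and 33.1 to 24.3, 24.0 and 25.2 FPKM (limma log2 fold change -0.53 with SE 0.0488, adjusted p = 3.99e-05). Nob1, the nuclease that makes the final cut and the partner of Pno1, fell by less, from 16.9, 17.3 and 18.1 to 16.5, 14.9 and 15.1 FPKM (log2 fold change -0.25, limma adjusted p = 0.00859, and 0.0508 with library totals alone). Tsr1, a GTPase-like factor, fell by 26.3%, but 32.3% of its exon length overlaps Srr on the opposite strand, and no source used here gives the strandedness. Bysl, which encodes bystin, did not pass: 15.4, 14.8 and 17.2 FPKM with RANKL and 16.8, 16.3 and 17.1 FPKM with etelcalcetide (95% interval of the change -9.22% to 11.5%, limma adjusted p = 0.923). Of its exon length 9.37% overlaps Ccnd3. Utp4 and Rrp9, both of the early processome, also did not pass, at -0.09 and -0.15 on the log2 scale (limma adjusted p = 0.166 and 0.103, the latter 0.0311 without etelcalcetide replicate 1). Rrp12, an export factor, passed narrowly at -0.19 (limma adjusted p = 0.0359). It did not pass without RANKL replicate 2 or 3 or etelcalcetide replicate 2 or 3 (adjusted p 0.0558 to 0.140), with the replicate block (0.0645), with no filter (0.0611) or with library totals alone (0.191).

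Because so many of the genes moved together, their promoters were searched for motifs. RefSeq windows on GRCm38.p6, 250 bases before to 50 after a start site, were at hand for 31 of the 36 genes. The E-box CACGTG, a palindrome that reads the same on both strands, was in the windows of 8 of the 31 genes. These were 23.5% of the 34 windows of the genes, against 7.15% of all 32851 windows and 7.84% of the 21262 windows of protein-coding genes. The 8 genes were Mybbp1a, Nop2, Pes1, Pno1, Tsr1, Utp20, Utp4 and Wdr43, of which 7 were called lower and Utp4 was not. Of all 31 genes with a window 25 were called lower, a similar share, and a link between motif and fall was not tested. In 7 of the 8 the motif began 2 to 40 bases after the start site, and in Nop2 it began 60 bases before it. The ETS motif CCGGAAG, on either strand, was in 26.5% of the genes' windows, against 8.86% of all windows and 11.6% of protein-coding ones. The GC box GGGCGG was in 64.7%, against 35.7% and 46.2%. CCAAT was in 29.4% (37.4% of all and 38.2% of protein-coding windows), TATAAA in 5.88% (13.6% and 12.6%) and AAGATGG in 2.94% (6.34% and 6.24%). Both strands were searched for each motif, and none of the 6 contains another. A match is a run of letters and not a shown binding site. The E-box promoters with the largest falls, Wdr43 (chr17:71615965-71616264, plus strand), Utp20 (chr10:88826765-88827064, minus strand) and Pno1 (chr11:17211540-17211839, minus strand), are shown with that of Dkc1 (chrX:75095604-75095903, plus strand), the gene that fell most, whose window holds no E-box. Capitals mark the E-box.
Wdr43: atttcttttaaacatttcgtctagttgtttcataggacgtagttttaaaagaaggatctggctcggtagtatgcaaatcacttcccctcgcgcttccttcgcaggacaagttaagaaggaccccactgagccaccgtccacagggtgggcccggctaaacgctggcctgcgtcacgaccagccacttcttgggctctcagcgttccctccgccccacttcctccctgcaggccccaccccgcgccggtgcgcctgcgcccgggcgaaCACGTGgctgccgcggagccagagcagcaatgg
Utp20: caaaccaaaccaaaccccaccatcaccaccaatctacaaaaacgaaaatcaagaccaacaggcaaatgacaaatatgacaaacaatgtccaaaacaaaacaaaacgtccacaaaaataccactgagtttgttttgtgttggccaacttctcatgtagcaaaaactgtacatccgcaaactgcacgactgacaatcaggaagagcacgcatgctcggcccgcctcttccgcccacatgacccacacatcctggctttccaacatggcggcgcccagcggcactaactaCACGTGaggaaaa
Pno1: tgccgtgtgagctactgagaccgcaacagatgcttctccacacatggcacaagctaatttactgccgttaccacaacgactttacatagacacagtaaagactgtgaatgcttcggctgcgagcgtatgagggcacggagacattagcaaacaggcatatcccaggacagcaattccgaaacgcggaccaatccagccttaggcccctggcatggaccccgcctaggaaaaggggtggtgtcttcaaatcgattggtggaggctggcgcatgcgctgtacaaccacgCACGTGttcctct
Dkc1: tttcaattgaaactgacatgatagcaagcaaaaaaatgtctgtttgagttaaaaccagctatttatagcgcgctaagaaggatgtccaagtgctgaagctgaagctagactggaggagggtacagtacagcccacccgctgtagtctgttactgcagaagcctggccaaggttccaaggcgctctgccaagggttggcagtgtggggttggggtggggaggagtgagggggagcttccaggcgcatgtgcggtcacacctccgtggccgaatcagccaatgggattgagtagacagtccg

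Of the 9 large subunit assembly genes 6 were lower and 3 were not called, with log2 fold changes from -0.80 to 0.13. Gnl3 encodes nucleostemin, a nucleolar GTPase known from proliferating cells (ENSMUSG00000042354, chromosome 14, 31012433 to 31019152). It went from 29.6, 23.6 and 21.8 to 16.1, 13.5 and 15.5 FPKM, and after scaling it fell by 42.5% (limma adjusted p = 0.000407). RANKL replicate 1 was the highest library, and the log2 fold change went from -0.80 to -0.67 without it. Rrs1, which helps to bring a small ribosomal RNA and its proteins into the subunit, fell from 71.6, 74.7 and 80.8 to 60.0, 62.1 and 57.7 FPKM (log2 fold change -0.41, limma adjusted p = 0.000525). Nop2, a methyltransferase of ribosomal RNA, and Rrp1b fell by 12.8% and 13.9%. Both calls were lost with library totals alone (adjusted p = 0.0568 and 0.116), and that of Rrp1b also without RANKL replicate 2, etelcalcetide replicate 2 or etelcalcetide replicate 3 (0.0692 to 0.0866). Nop16 and Wdr74 did not pass (limma adjusted p = 0.0627 and 0.299). Nop16 lay near the threshold and passed with upper-quartile scaling (0.0469), with median-of-ratios scaling (0.0488) and without RANKL replicate 1 (0.0170).

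The PeBoW complex, which is needed to mature the large subunit, has 3 subunits, of which 2 were lower. Wdr12 went from 9.54, 9.36 and 9.13 to 6.49, 6.47 and 7.40 FPKM, and after scaling it fell by 31.0% (limma adjusted p = 0.000386). Pes1 went from 74.3, 76.2 and 74.1 to 67.1, 67.5 and 70.6 FPKM, and after scaling it fell by 13.6% (limma adjusted p = 0.00474). Bop1 did not pass, at 33.4, 36.1 and 37.4 FPKM with RANKL and 41.9, 42.4 and 39.5 FPKM with etelcalcetide (95% interval of the change -0.450% to 20.6%, limma adjusted p = 0.0985). The deposited values did not overlap, but after scaling they did, and the log2 fold change was 0.13. With library totals alone Bop1 was called higher (adjusted p = 0.0154).

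**Figure D3:**
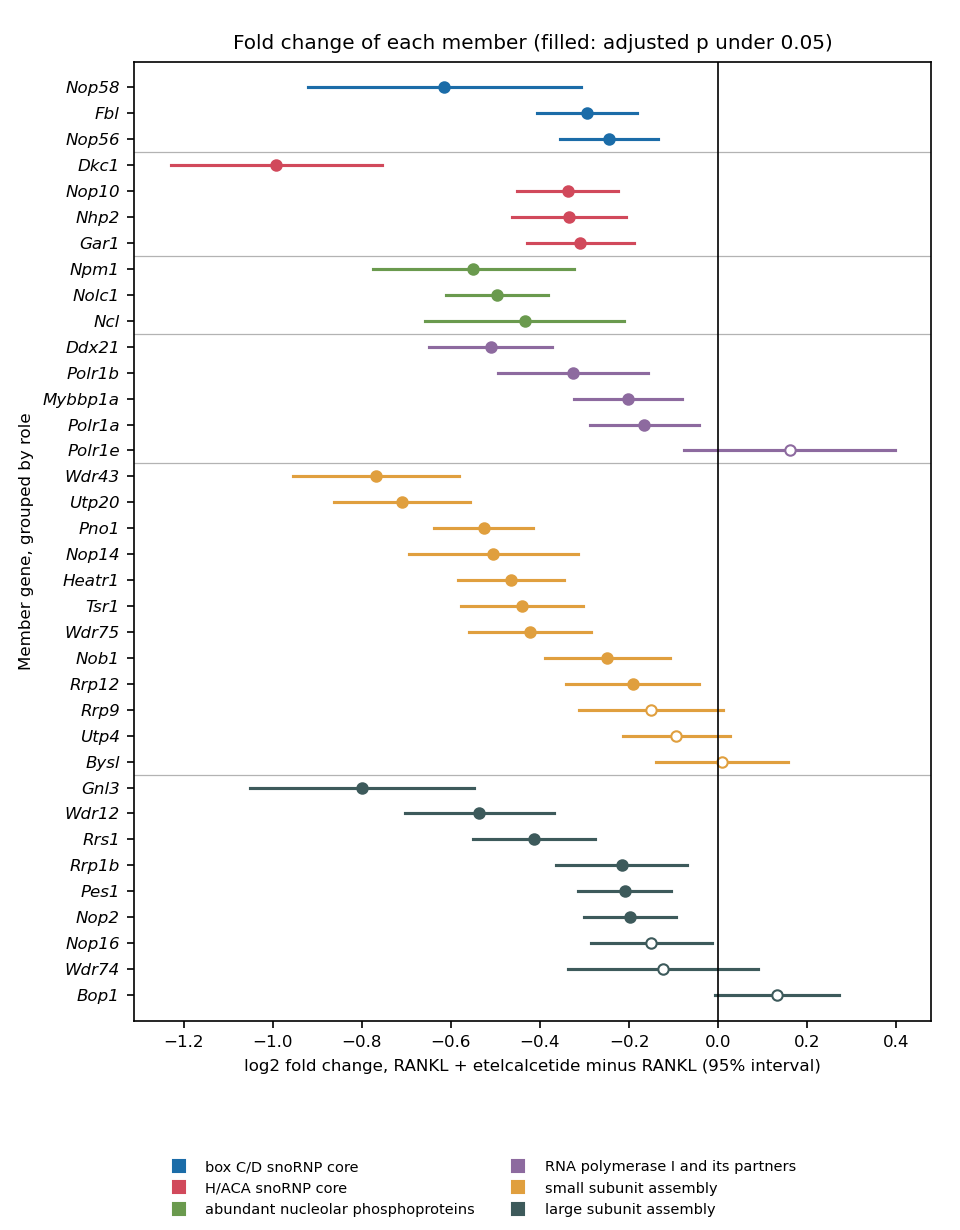
log2 fold change of each of the 36 genes with its 95% interval, grouped by role; filled points passed the test. The filled points run from -0.99 for Dkc1 to -0.17 for Polr1a, and the 7 open points lie between -0.15 and 0.16.

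Levels within 4 complexes are also given as a ratio of 2 genes inside each library, where the scaling between libraries cancels. These 4 pairs were chosen because their values differed, so the ratios are a description with no test. The log2 ratio of Wdr12 to Bop1 was -1.93 ± 0.113 with RANKL and -2.61 ± 0.164 with etelcalcetide (SD, n = 3 per group). That of Dkc1 to Nhp2 was -2.36 ± 0.291 and -3.02 ± 0.144, and that of Nop58 to Nop56 was -2.61 ± 0.276 and -2.99 ± 0.0749. That of Polr1b to Polr1e was 1.09 ± 0.198 and 0.60 ± 0.210.

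The genes spanned a 101-fold range of level, with 13 above 50 FPKM and 14 below 20 FPKM in the RANKL group. Npm1 stood far above the rest, at 555 ± 82.6 FPKM (SD, n = 3), followed by Nhp2 at 172 ± 11.0, Ncl at 125 ± 19.3 and Ddx21 at 115 ± 8.32 FPKM. The spreads of Ncl and Ddx21 overlap. The lowest were Polr1e at 5.51 ± 0.397, Wdr12 at 9.34 ± 0.204 and Polr1b at 11.7 ± 0.847 FPKM. The genes lie on 17 chromosomes. Processed pseudogenes at least 95% identical over 300 bases exist for 6 of them (Ddx21, Fbl, Nop56, Npm1, Pes1 and Wdr12), and the sources used here do not say how reads that fit several copies were counted. Fbl also shares a stretch of 690 bases with Tulp4, which held 8173 reads against 21766 for Fbl. The pseudogenes of Npm1 held 221 to 375 reads each, against 115930 for Npm1, and the most read copy of Nop56 held 994 against 27736.

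The wider pathway was described by lists of other genes with the same roles. For comparison with their counts, 27.0% of all tested genes were lower and 26.0% higher. Of 52 other large subunit assembly genes 31 were lower and 2 higher, with a median log2 fold change of -0.30. Sdad1 went from 20.2 ± 1.32 to 12.9 ± 1.10 FPKM, and Sbds, which helps to release the finished large subunit, from 22.1 ± 0.870 to 16.0 ± 0.197 FPKM (SD, n = 3 per group). The 2 that rose were the helicases Ddx24 and Ddx54, by 0.31 and 0.42 on the log2 scale. Of 46 other small subunit genes 23 were lower and 3 higher (Rrp7a, Rrp36 and Bud23), with a median of -0.22, and without etelcalcetide replicate 2 a total of 17 rather than 26 were called. Wdr3 fell from 31.6 ± 1.80 to 24.0 ± 0.926 FPKM and Nol7 from 24.6 ± 1.30 to 18.4 ± 1.02 FPKM, with 16.2% and 16.5% of their exon length shared with another gene.

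Most of the other genes listed for snoRNPs and for trimming of the precursor were also lower, against 27.0% of all tested genes (26.0% higher). Of 9 other snoRNP genes 5 were lower and 1 higher (Pih1d1). Naf1, which loads dyskerin onto new H/ACA particles, fell from 25.9 ± 0.628 to 17.3 ± 0.706 FPKM (limma log2 fold change -0.65), and Znhit6, an assembly factor of box C/D particles, from 8.15 ± 0.460 to 6.15 ± 0.300 FPKM (SD, n = 3 per group). Of 13 tested genes of the RNA exosome, the nuclease complex that trims the precursor, 8 were lower and 1 higher (Exosc4). Its nuclease Dis3 fell from 9.14 ± 1.20 to 5.29 ± 0.537 FPKM and its cofactor C1d from 10.3 ± 0.815 to 7.79 ± 0.425 FPKM. Of 11 tested noncoding snoRNA host genes 6 were lower and 1 higher (Snhg17), among them Gas5, from 29.7 ± 2.82 to 22.4 ± 0.376 FPKM, Snhg1, from 12.6 ± 0.881 to 9.98 ± 0.400 FPKM, and Snhg5, from 10.1 ± 0.789 to 6.88 ± 0.261 FPKM.

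**Figure D4:**
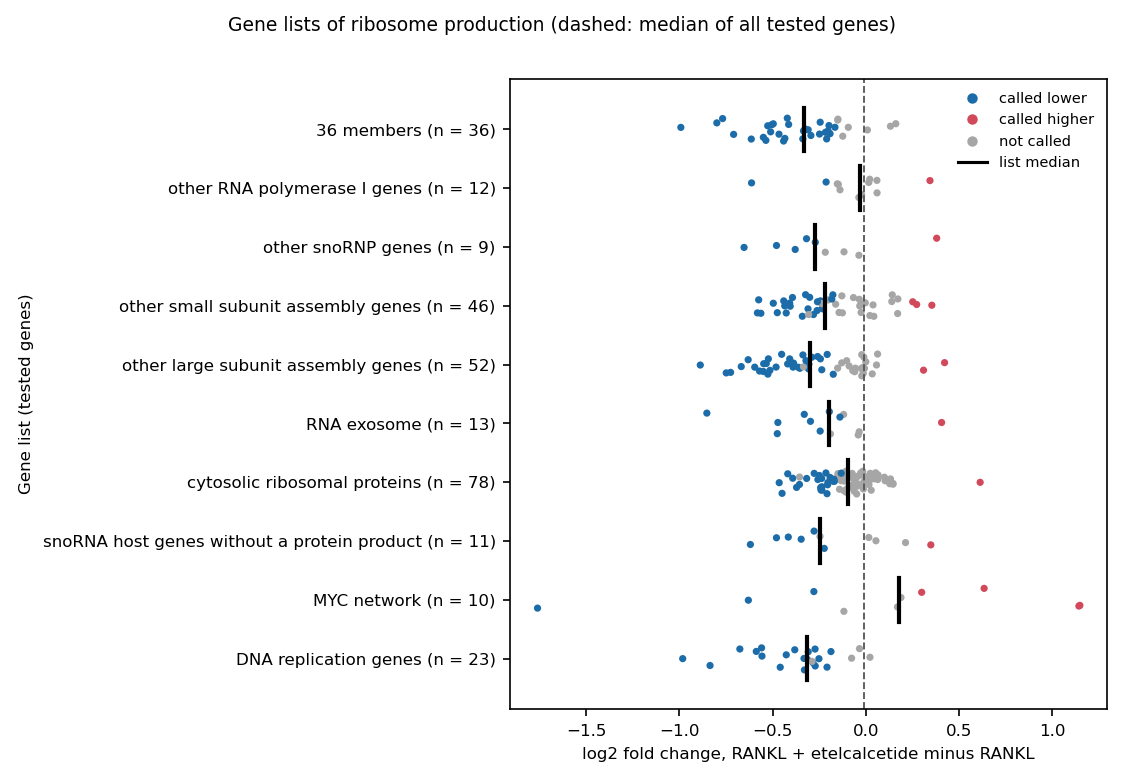
log2 fold change of every tested gene in the lists of ribosome production, of the MYC network and of DNA replication (1 point per gene, black bars are medians, the dashed line is the median of all tested genes at -0.01). The 36 genes have a median of -0.33, the other polymerase I genes -0.03 and the ribosomal proteins -0.09.

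Genes of the polymerase I machinery and of the ribosomal proteins changed less. Of 12 other polymerase I genes 2 were lower, 1 higher (Taf1c) and 9 not called, with a median of -0.03. Twistnb, a polymerase subunit, fell from 9.74 ± 1.56 to 6.64 ± 0.252 FPKM, and Ubtf, which opens ribosomal DNA for transcription, from 41.7 ± 0.444 to 38.0 ± 0.198 FPKM (limma log2 fold change -0.21). Rrn3, the factor that brings the polymerase to its promoter, stood at 25.0 ± 1.10 and 26.8 ± 0.271 FPKM (limma adjusted p = 0.773). Of 78 cytosolic ribosomal protein genes 24 were lower (30.8%, near the 27.0% of all tested genes). Only 1 was higher (Rps10), or 1.28% against 26.0% of all tested genes. The median was -0.09, and 60 of the 78 had a log2 fold change below 0, against 5664 of all 11120 tested genes. Without etelcalcetide replicate 1 a total of 16 rather than 25 ribosomal protein genes were called. Rpl5, with 26.7% of its exon length shared with another gene, fell from 469 ± 32.6 to 362 ± 10.4 FPKM and Rpl7 from 473 ± 27.2 to 374 ± 10.6 FPKM, while Rplp0 stood at 820 ± 63.3 and 927 ± 29.3 FPKM (limma adjusted p = 0.255). Ribosomal protein genes have many near-identical copies, so single values are uncertain. No difference between these lists and the 36 genes was tested.

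Some genes of the MYC network and most DNA replication genes also differed between the groups. Myc stood at 3.52, 5.17 and 4.84 FPKM in RANKL replicates 1, 2 and 3 and at 1.36, 1.45 and 1.15 FPKM in etelcalcetide replicates 1, 2 and 3 (log2 fold change -1.76, limma adjusted p = 3.82e-05). Its relative Mycn, named after its value was seen, was 65.7 times as high in the RANKL group, at 296 ± 19.4 FPKM, and stood at 288 ± 7.61 FPKM with etelcalcetide (limma adjusted p = 0.113). Among 10 tested genes of the network 4 rose (Mxd1, Mxd3, Mxd4 and Mlx) and 3 fell (Myc, Max and Mga). Mxd4, which encodes an antagonist of MYC at E-boxes, went from 3.63 ± 0.295 to 8.68 ± 1.46 FPKM (SD, n = 3 per group). Of 23 DNA replication genes 19 were lower and 0 higher, with a median of -0.31, and Pcna, the sliding clamp of replication, went from 191, 198 and 198 to 123, 112 and 113 FPKM. The part of these genes in the levels of the 36 was not tested.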

How the data were processed

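RNA of 6 libraries of RAW264.7 cells was compared, 3 per group, and titles gave the group and replicate number. The authors deposited FPKM values, 1 table per library. The aligner HISAT2 2.1.0, the counter featureCounts 1.6.0, Trimmomatic 0.38 and DESeq2 1.22.1 are named in the submitters' processing notes. Those notes give a human build, GRCh38, yet all 55536 identifiers matched the mouse annotation GENCODE M21, so positions are 1-based on GRCm38. FPKM times merged exon length gave whole reads for 100% of values above 0 (tolerance 0.01 reads).

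Scaling factors (trimmed mean of M values, 0.967 to 1.04) came from those reads and divided FPKM, and log2(FPKM + 0.1) was fitted with limma 3.58.1 in R 4.3.3, group being the only term, with a mean-dependent prior variance. Genes needed 0.5 FPKM and 10 reads in at least 3 libraries. Printed FPKM values are as deposited, before scaling. On simulated reads for 11062 genes with 200 changed, 97.0% of 2-fold and 79.8% of 1.5-fold changes were recovered, and 6.91% of calls were false. That simulation gave every gene the same preset spread, with no scaling between libraries and no effect of day. Far fewer genes changed in it than were called here, so its rates need not hold for the real libraries. By the labels a replicate number marks a day of exposure shared by both groups, so the numbers pair the samples. Deviations of same-numbered libraries from their group means correlated at 0.074, -0.019 and -0.030. The replicate block was an alternative, and its value stands beside each of the 36 genes whose call it changed. Near copies were sought with blastn among GENCODE transcripts. All 36 genes are named whatever their value, with the 2 smallest adjusted p of each other list, 7 genes chosen by name and Snu13. The genes and lists were chosen with earlier results of these data known. Python 3.11.15 and pandas 2.3.3 handled the tables.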

Additional observations from a re-analysis of the deposited data

How the results depend on the processing

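Across 15 alternative settings, 23 of the 29 lower genes kept their direction and their call in every one, and the number of lower genes ran from 23 to 30. Leaving out 1 library gave 25 to 30 lower genes, 0 higher genes and a median log2 fold change of -0.34 to -0.31. With library totals alone 1 gene, Bop1, was called higher, the median of the 36 was -0.25, and 5830 genes changed in all, 2272 lower and 3558 higher, against 5894 (2998 lower, 2896 higher). That setting moved the median of all genes from -0.01 to 0.07. The log2 fold change of Bysl, 0.01, turned to -0.0029 with upper-quartile scaling and, leaving out 1 library, ran from -0.032 to 0.066. Called ribosomal protein genes numbered 14 with no filter and 16 to 36 with 1 library left out, against 25. With a minimum of 5 FPKM 4 MYC network genes were called against 7, as fewer were tested. Other small subunit genes called ran from 17 to 29 with 1 library left out. The cause of the other changes was not tested. The replicate block gave 27 lower genes and 5709 changed genes. It ended the calls of Polr1a and Rrp12 and changed no other call among the 36.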
